A study of Homo sapiens with 2 samples.

Results

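To examine the enzymes and receptors of prostaglandin signaling after knockdown of MBD2, 10 genes were read from the RNA-seq of TFK1 cells: PTGS1, PTGS2, PTGES, PTGER2, PTGER4, HPGD, PLA2G4A, PLA2G10, PLA2G2A and ALOX5. They were chosen by symbol from the 56638 genes of the deposited tables, and all 10 were found. TFK1 is an established human cholangiocarcinoma cell line. One library came from TFK1 cells carrying a negative control shRNA (shNC) and one from TFK1 cells carrying a shRNA against MBD2 (shMBD2), a protein that reads methylated CpG dinucleotides. The study's methods describe lentiviral shRNAs, and the labels record no treatment for either. Which of the study's MBD2 shRNAs was sequenced is not given in the sources used here. Each condition rests on 1 library, with 14728814 counts for shMBD2 and 14467406 for shNC, so no difference below has a replicate check, the spread between cultures was not measured, and no p-value is given. MBD2 itself had 365 counts in shMBD2 and 1013 in shNC, a log2FC of -1.48.

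Prostaglandins are made when a phospholipase A2 frees arachidonic acid from membranes, a cyclooxygenase turns it into prostaglandin H2, and a terminal synthase turns that into prostaglandin E2 (PGE2) or another prostanoid. PGE2 acts on receptors at the cell surface and is inactivated by a dehydrogenase, and lipoxygenases divert the same arachidonic acid to leukotrienes. In the biliary epithelium and its tumors, cyclooxygenase-2 is known as an enzyme induced by inflammatory signals.

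In shMBD2, the inducible enzymes PTGS2 and PTGES were higher than in shNC, whereas PTGER2, PTGER4 and HPGD, which receive and remove PGE2, had similar counts in both libraries. The 2 receptors had only 22 or 23 counts per library, too few to detect differences smaller than almost 2-fold. PTGS2 was 3.57-fold and PTGES 2.51-fold higher. PLA2G4A was 1.29-fold higher. The other cyclooxygenase and the other phospholipases were at low levels in both libraries, with PTGS1 and PLA2G10 lower in shMBD2, and ALOX5 was also low and was higher in shMBD2. Here log2FC is shMBD2 over shNC after TMM scaling and a prior of 0.5 counts, given where both libraries together hold 10 counts or more. Each interval (95%, exact Clopper-Pearson) comes from how a gene's reads divide between the libraries and covers counting error only. Of the 10 genes, 9 had at least 10 counts, 3 of them had a log2FC above 1 and 2 below -1. Among all 17545 genes compared, 5.48% were above 1 and 5.07% below -1. The median log2FC was 0.087 over the 9 genes and -0.0082 over all genes.

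The promoters of PTGS2 and PTGES, the genes with many reads and a ratio past 2-fold, and of PLA2G10, which had no read in shMBD2, are shown with each CpG in capitals, since the CpG is the dinucleotide that MBD2 reads. They are RefSeq sequences (GRCh38.p14) from 250 bases before to 50 bases after the annotated start. PTGS2 lies at chr1:186680374-186680673, PTGES at chr9:129752993-129753292 and PLA2G10 at chr16:14694259-14694558, all on the minus strand.
PTGS2: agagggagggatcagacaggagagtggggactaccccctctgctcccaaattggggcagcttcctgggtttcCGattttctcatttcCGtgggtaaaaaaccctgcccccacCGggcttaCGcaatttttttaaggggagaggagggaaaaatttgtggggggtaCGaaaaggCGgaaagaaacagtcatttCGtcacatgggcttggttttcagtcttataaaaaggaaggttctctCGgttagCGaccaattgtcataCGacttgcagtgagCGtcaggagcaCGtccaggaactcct
PTGES: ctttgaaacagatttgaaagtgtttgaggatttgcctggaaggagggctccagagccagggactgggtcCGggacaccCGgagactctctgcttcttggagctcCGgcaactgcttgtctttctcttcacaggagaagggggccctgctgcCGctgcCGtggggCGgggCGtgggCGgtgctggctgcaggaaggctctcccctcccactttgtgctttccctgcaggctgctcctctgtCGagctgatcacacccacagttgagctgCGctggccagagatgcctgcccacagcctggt
PLA2G10: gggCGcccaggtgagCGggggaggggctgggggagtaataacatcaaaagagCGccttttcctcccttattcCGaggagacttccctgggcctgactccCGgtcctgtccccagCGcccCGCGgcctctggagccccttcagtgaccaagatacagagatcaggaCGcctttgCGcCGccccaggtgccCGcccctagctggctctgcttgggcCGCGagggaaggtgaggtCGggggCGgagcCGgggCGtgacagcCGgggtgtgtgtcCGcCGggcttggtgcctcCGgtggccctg

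These windows hold 12 CpGs for PTGS2, 10 for PTGES and 22 for PLA2G10, against a median of 14 over 35116 RefSeq promoters. The promoters of the receptor genes are richer, with 37 CpGs for PTGER2 and 30 for PTGER4, and PLA2G4A is poorer, with 3. PTGS1, HPGD and PLA2G2A have more than one annotated start, with 4 and 10 CpGs for PTGS1, 34 and 7 for HPGD, and between 3 and 5 for PLA2G2A. A promoter was found for 9 of the 10 genes, all but ALOX5. DNA methylation was not analysed here, so how many of these CpGs are methylated in TFK1 cells is unknown.

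Short motifs were searched on both strands of the windows of all 9 genes. TATAAA, a core promoter element near many starts, occurs in PTGS2 32 bases before the start, in one of the PTGS1 windows 208 bases before it on the minus strand, and in 11.5% of all promoters. CGTCA, the half-site of cAMP response elements, occurs in PTGS2 both 58 bases before and 24 bases after the start, also in PTGER2 and in one HPGD window, and it is found in 24.6% of all promoters. GGG and CCC with 4 bases between them, a loose frame of sites bound by NF-kB, occur once in PTGS2, 224 bases before the start, also in PTGER2, PTGER4 and one HPGD window, and in 17.8% of all promoters. GGGCGG, a GC box, occurs 89 and 78 bases before the start of PTGES and at 3 places in PLA2G10. It also occurs in PTGS1, PTGER2, PTGER4 and 1 HPGD window. It is absent from the PTGS2, PLA2G4A and PLA2G2A windows, and is found in 45% of all promoters. The PTGES and PLA2G10 windows hold no match to the other 3 motifs. These matches describe the letters of the windows only.

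The cyclooxygenases catalyze the committed step to all prostanoids. PTGS2 (ENSG00000073756), which encodes the inducible cyclooxygenase-2, spans chr1:186671791-186680427 (minus strand, GENCODE 29, GRCh38). It had 6313 counts in shMBD2 and 1759 in shNC. In TPM (transcripts per 1000000, which corrects for gene length), these were 245 and 69.9. The log2FC of PTGS2 was 1.83 (interval 1.76 to 1.91). Its whole interval lay above 1, as the interval did for 1.37% of all genes compared, against 0.581% with the whole interval below -1. PTGS2 ranked 311 from the highest log2FC among the 17545 genes, where most genes above it had few reads, and 52 among the 10917 genes whose higher library had 100 counts or more, called well-covered here. By level, it ranked 2226 of all genes by TPM in shNC and 478 in shMBD2, and its gain of 175 TPM was the 31st largest of any gene.

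PTGS1 (ENSG00000095303), the constitutive cyclooxygenase-1, had 5 counts in shMBD2 and 20 in shNC, or 0.176 and 0.723 TPM. The PTGS1 log2FC was -1.91 with an interval from -3.78 to -0.55, which includes values inside -1. On the log2 scale of TPM plus 1 it was -0.55. The 2 cyclooxygenase genes thus lay on opposite sides, and PTGS2 carried nearly all of their transcripts in both libraries. On the TPM scale, which is per length, PTGS2 made up 99.93% of cyclooxygenase transcripts in shMBD2 (interval 99.83% to 99.98%) and 98.98% in shNC (interval 98.42% to 99.37%).

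**Figure D1:**
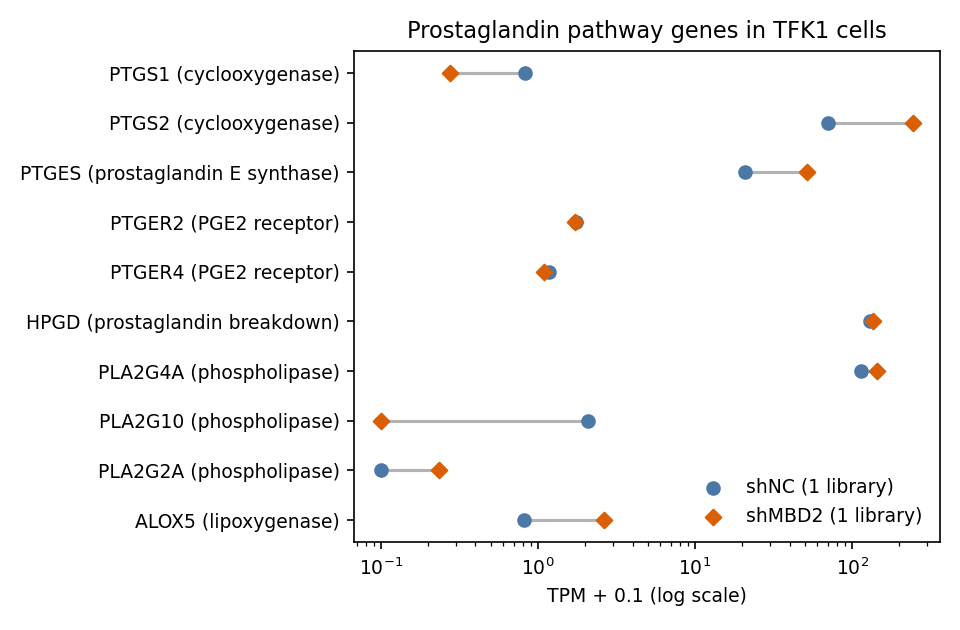
Level of each of the 10 genes in the shNC library (circles) and the shMBD2 library (diamonds), as deposited TPM plus 0.1 on a log axis, with the role of each gene after its name. PTGS2 is at 69.9 TPM in shNC and 245 in shMBD2, and PTGES at 20.7 and 51.2, while the symbols of HPGD, PTGER2 and PTGER4 nearly coincide.

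PTGES (ENSG00000148344, chromosome 9, minus strand, 129738331 to 129753047 in GENCODE 29) encodes the microsomal PGE synthase, which is known to be induced together with cyclooxygenase-2. It had 547 counts in shMBD2 and 216 in shNC, at levels of 51.2 and 20.7 TPM. The PTGES log2FC was 1.33 (interval 1.10 to 1.57), and it ranked 108 among the 10917 well-covered genes. Of those, 1.62% had a log2FC above 1, 0.998% below -1, 1.15% a whole interval above 1, as PTGS2 and PTGES had, and 0.421% a whole interval below -1. The other PGE synthases, PTGES2 and PTGES3, had log2FC of 0.35 (interval 0.21 to 0.50) and 0.11 (interval 0.064 to 0.15). PTGES was the least abundant of these 3 genes in both libraries, and its share of their summed TPM was 8.0% in shMBD2 (interval 7.3% to 8.6%) and 3.6% in shNC (interval 3.2% to 4.1%). PTGES3, also known as the co-chaperone p23, held 81.9% and 87.3%.

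HPGD (ENSG00000164120, chromosome 4, minus strand, 174490177 to 174523154 in GENCODE 29) encodes the dehydrogenase that begins the breakdown of PGE2. It had 2341 counts in shMBD2 and 2190 in shNC, or 135 and 130 TPM. Its log2FC was 0.087, and its interval from 0.0026 to 0.17 lay just above 0, as the interval did for 19.7% of all genes and 25.4% of well-covered genes, with 18.4% and 23.8% below 0. The order of the pathway's enzymes by level therefore differed between the libraries. In shNC, HPGD had more TPM than PTGS2, with a PTGS2 to HPGD ratio of 0.539 (interval 0.506 to 0.574), and in shMBD2 the ratio was 1.81 (interval 1.72 to 1.90). The PTGES to HPGD ratio was 0.160 in shNC and 0.379 in shMBD2, so PTGES stayed below HPGD in both.

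PTGER2 and PTGER4 encode EP2 and EP4, the PGE2 receptors that raise cAMP. PTGER2 (ENSG00000125384) had 22 counts in each library, or 1.61 TPM in shMBD2 and 1.66 in shNC. PTGER4 (ENSG00000171522) had 22 counts in shMBD2 and 23 in shNC, or 1.0 and 1.07 TPM. Their log2FC were -0.0087 (interval -0.93 to 0.91) and -0.071 (interval -0.98 to 0.84). At this depth, differences smaller than almost 2-fold in either direction were not detectable for these receptors. Of the remaining PGE2 receptors, PTGER1 had 0 counts in shMBD2 and 3 in shNC, and PTGER3 had 0 in both.

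**Figure D2:**
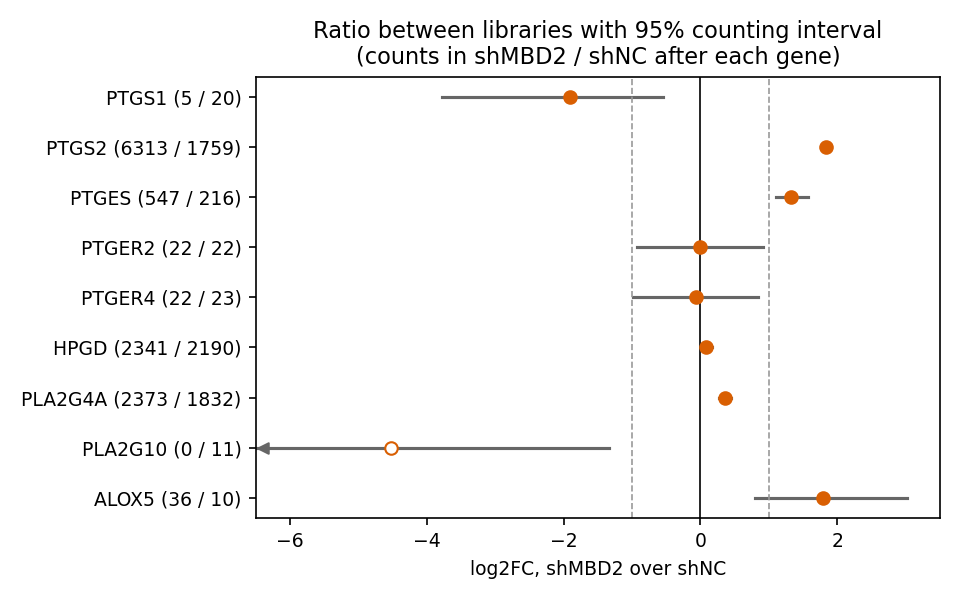
Log2FC (shMBD2 over shNC) of the 9 genes with at least 10 counts; points are log2FC, lines are 95% counting intervals, dashed lines mark -1 and 1, and the counts follow each name. The intervals of PTGS2 and PTGES lie wholly above 1; the PLA2G10 point is open because its shMBD2 count is 0, so the fitted value depends on the prior and its interval has no lower end.

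Phospholipases supply the arachidonic acid. PLA2G4A (ENSG00000116711), the cytosolic phospholipase A2 that prefers arachidonic acid, had 2373 counts in shMBD2 and 1832 in shNC, or 144 and 114 TPM. Its log2FC of 0.36 (interval 0.28 to 0.45) was beyond counting error and well inside 1. PLA2G4A lies on the plus strand of chromosome 1, 149 kb from PTGS2 by the coordinates in the tables, and the interval of its log2FC lay wholly below that of PTGS2.

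PLA2G10 and PLA2G2A encode secreted phospholipases A2. PLA2G10 (ENSG00000069764) had 0 counts in shMBD2 and 11 in shNC, or 1.98 TPM in shNC. With 3 counts taken as the most that a count of 0 allows, and the 11 taken as exact, it would be at least 3.69-fold lower in shMBD2. The upper end of its log2FC interval was -1.34, and it was the only one of the 9 genes compared whose whole interval lay below -1. RefSeq lists 8 pseudogenes of PLA2G10, and reads could be split between such copies, so its value is uncertain. PLA2G2A (ENSG00000188257) had 1 count in shMBD2 and 0 in shNC, at or under 3 counts in both, and no ratio is given. A count of 0 allows up to 0.204 CPM (counts per 1000000 counts) in shMBD2 and 0.207 CPM in shNC. Of the summed TPM of these 3 phospholipases, PLA2G4A held 99.9% in shMBD2 and 98.3% in shNC.

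ALOX5 (ENSG00000012779) encodes 5-lipoxygenase, the first enzyme of leukotriene synthesis, and is best known from myeloid cells. It had 36 counts in shMBD2 and 10 in shNC, or 2.51 and 0.717 TPM. The ALOX5 log2FC was 1.79, and its interval, 0.80 to 3.02, reaches inside 1. RP11-67C2.2, which overlaps ALOX5 on the opposite strand, had 0 counts in shMBD2 and 5 in shNC, and whether the counting used strand is not given in the sources used here. ALOX5AP, the protein that 5-lipoxygenase needs in cells, had 7 and 4 counts (log2FC 0.73, interval -1.18 to 3.02). LTC4S, the leukotriene C4 synthase, had 1 and 0 counts, while LTA4H, the hydrolase that makes leukotriene B4, had 2260 and 2001 (log2FC 0.17).

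Because ALOX5 is a leukocyte gene, 14 leukocyte markers were read beside it. Their summed level was 24.6 TPM in shMBD2 and 15.4 in shNC. PTPRC and TYROBP had 0 counts in shMBD2 and 1 in shNC, and CD52, CD68 and CD3E had 0 in both. CORO1A had 56 and 19 counts, LAPTM5 29 and 3, CD14 152 and 126, and ITGAM 50 and 38, and the 4 were the only leukocyte markers with at least 10 counts summed. All 4 had a log2FC above 0, with a median of 0.95, beside 8582 of the 17545 genes compared and a median of -0.0082. LAPTM5 (3.07, interval 1.57 to 5.62) and CORO1A (1.53, interval 0.78 to 2.38) were above 1, as 5.48% of all genes compared were. The intervals of CD14 and ITGAM include 0. S100A9 had 7 and 0. The part of these markers in the ALOX5 difference was not tested. The 7 fibroblast markers summed to 8.5 TPM in shMBD2 and 4.01 in shNC, nearly all of it COL1A1 (308 and 124 counts, log2FC 1.30), with DCN at 1 count in each library and COL1A2 at 0 and 1. Of the 5 endothelial markers, 4 were at 0 in both libraries and CDH5 had 0 and 1 counts. All 8 biliary epithelial markers were read in both libraries, from 111 and 162 counts for EPCAM and 119 and 70 for KRT19 to 49193 and 62047 for KRT8, with log2FC between -0.73 and 0.75. Their summed level was 4837 TPM in shMBD2 and 6047 in shNC, and their median log2FC was -0.35, beside -0.0082 over all genes compared. Of the 8 intervals, 6 lay wholly below 0 and 2, those of KRT19 and CDH1, wholly above. Over all genes compared, 18.4% of intervals lay wholly below 0 and 19.7% wholly above, and over well-covered genes 23.8% and 25.4%. In bulk RNA, fewer cells of a type and less RNA per cell cannot be told apart.

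**Figure D3:**
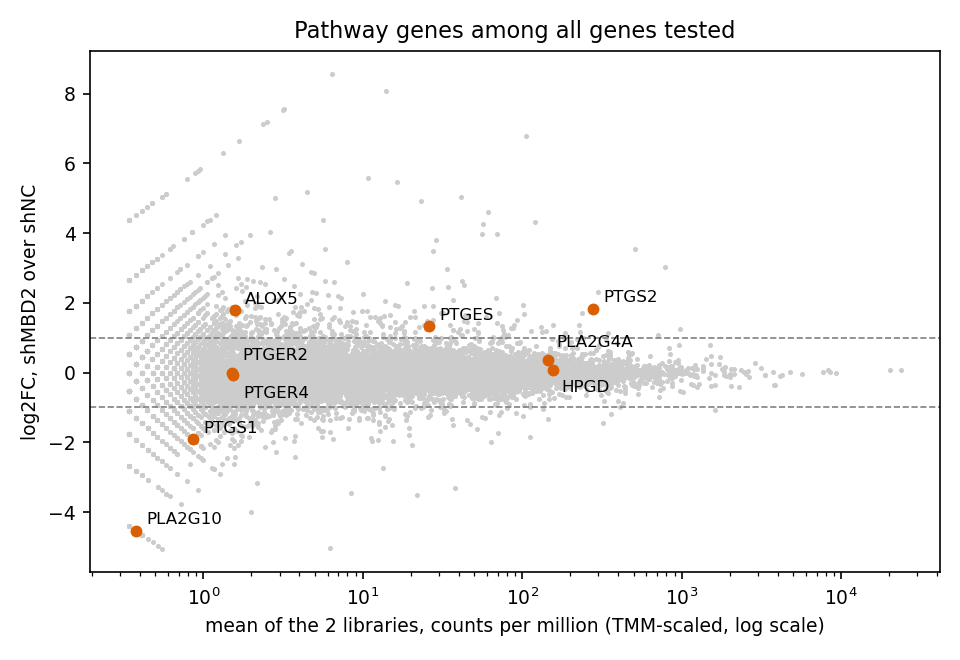
Log2FC against mean level (TMM-scaled CPM, log axis) for all 17545 genes compared in grey and 9 of the 10 pathway genes in orange; dashed lines mark -1 and 1. PTGS2 and PTGES lie above 1 at levels where few genes do, whereas ALOX5, PTGS1 and PLA2G10 lie at low levels, where many genes are past these lines.

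The rest of the pathway was followed through 73 other eicosanoid genes. Of these, 44 had at least 10 counts, 6 of them had a log2FC above 1 and 1 below -1, and their median was 0.069, beside 5.48% above 1, 5.07% below -1 and a median of -0.0082 over all genes compared. Among the 6, 2 were enzymes with many reads. AKR1B1, an aldose reductase that also has prostaglandin F synthase activity, had 20060 counts in shMBD2 and 8370 in shNC (log2FC 1.25, interval 1.22 to 1.29). ACSL4, which attaches arachidonic acid to coenzyme A, had 2878 and 1243 counts (log2FC 1.20, interval 1.11 to 1.30). Both intervals lay wholly above 1, as those of PTGS2 and PTGES did.

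The remaining 5 genes past 1 or -1 had fewer reads. GGT5, which converts leukotriene C4 to D4, had 353 and 173 counts (log2FC 1.02, interval 0.75 to 1.29). PLA2G4C, a cytosolic phospholipase A2, had 36 and 10 counts, the same numbers as ALOX5. PTGIR, the prostacyclin receptor, had 12 counts in shMBD2 and 0 in shNC. With 3 counts taken as the most that the 0 allows and the 12 taken as exact, it would be at least 3.98-fold higher in shMBD2. The lower end of the PTGIR log2FC interval was 1.47. ALOX12B had 13 and 6 counts (log2FC 1.05, interval -0.39 to 2.79) and PLA2G4B 2 and 8 (log2FC -1.77, interval -5.28 to 0.32), and both intervals include 0.

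Within each role of the 73 other genes, the gene with the highest mean TPM over both libraries lay inside 1. ANXA1, which inhibits phospholipase A2, had 2153 TPM in shMBD2 and 2059 in shNC (log2FC 0.092). AKR1C3, another prostaglandin F synthase, whose value is uncertain because of near-identical paralogs, had 2018 and 2643 TPM (log2FC -0.36), and PTGR1, a prostaglandin reductase, 432 and 375 TPM (log2FC 0.23). PLAAT3, a phospholipase, had 43.6 and 45.6 TPM (log2FC -0.038), TBXA2R, the thromboxane receptor, 0.537 and 0.619 TPM (log2FC -0.17, with PTGIR above it in shMBD2 at 0.996 TPM and at 0 in shNC), and GGT1, which has near-identical copies that could share reads, 83.6 and 61.6 TPM (log2FC 0.47). LTB4R, a leukotriene B4 receptor, had 416 and 413 counts (log2FC 0.0016).

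**Figure D4:**
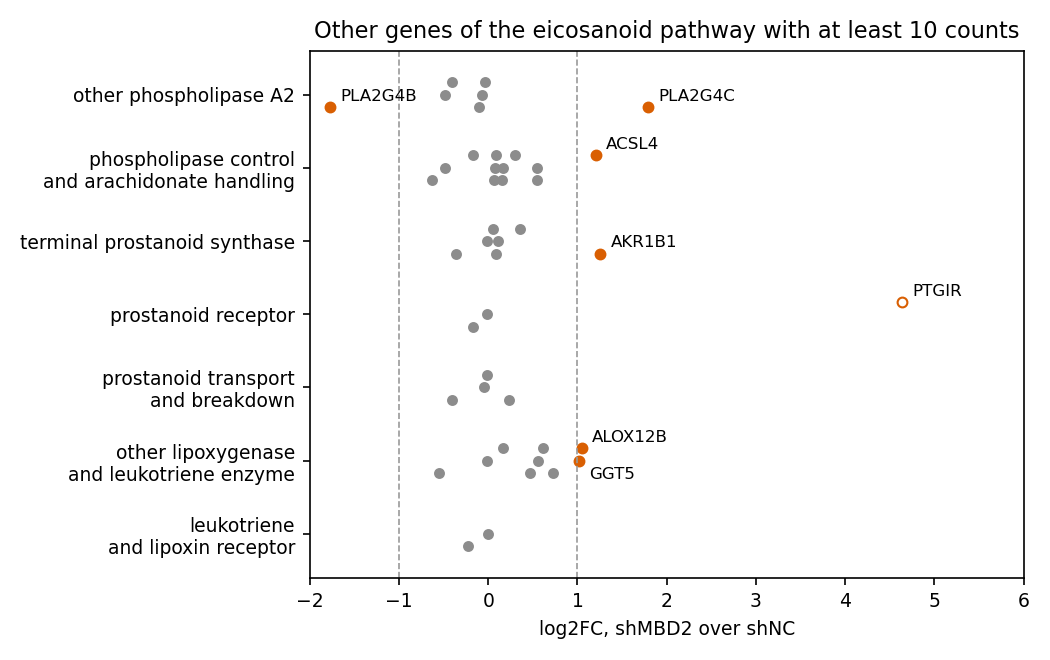
Log2FC (shMBD2 over shNC) of the 44 other eicosanoid genes with at least 10 counts, by role; each point is a gene, the 7 genes past the dashed lines at -1 and 1 are named, and the open point is PTGIR, whose shNC count is 0. Most points lie between -1 and 1, and AKR1B1 and ACSL4 are the most read of the named genes.

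Genes that respond to cAMP, the second messenger of EP2 and EP4, were read as a list of 12. All 12 had at least 10 counts, and 0 were past 1 or -1, where 5.48% of all genes compared were above 1 and 5.07% below -1. Most of the list has many reads, with 11 of the 12 at 100 counts or more summed over both libraries. AREG (54 and 67 counts) and NR4A3 (37 and 48) stay under 100 counts in the higher library and are not well-covered genes. Of the well-covered genes, 1.62% were above 1 and 0.998% below -1, so 0 of 12 is near those shares. Of the 12, 9 had a log2FC below 0 and 3 above 0, with 5 intervals wholly below 0 and 2 wholly above. Of the 17545 genes compared, 8963 were below 0 and 8582 above 0, and 18.4% had intervals wholly below 0 and 19.7% wholly above. Among well-covered genes, the interval shares were 23.8% and 25.4%. The median log2FC of the 12 was -0.28, beside -0.0082 over all genes compared. The 12 ranged from -0.64 for NR4A2 (89 counts in shMBD2 and 138 in shNC) to 0.67 for FOS (143 and 89 counts). PPARGC1A, a coactivator induced by cAMP, had 328 and 489 (log2FC -0.58), NR4A1 had 309 counts in each library, and PDE4B, a cAMP phosphodiesterase, had 1096 and 789 (log2FC 0.47).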

How the data were processed

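RNA-seq of TFK1 cells with shMBD2 or shNC was used, 1 library per group. The authors deposited whole-number read counts per gene and TPM. The submitters' processing notes list fastp, HISAT2 2.1.0, featureCounts, DESeq 1.18.1 and GRCh38.p13, although the coordinates in the tables differ from GRCh38 for 10 of the 10 genes, so positions are from GENCODE 29 and distances from the tables. Strandedness is not given in the sources used here. Of 63723 lines, 46 without a gene were dropped, and repeats of a symbol with the same values were merged, which left 56638 genes, with 14728814 counts in shMBD2 and 14467406 in shNC.

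TMM factors came from edgeR 4.0.16 (R 4.3.3), intervals from scipy 1.17.1 and alternative size factors from DESeq2 1.42.0. Intervals of shares and TPM ratios were rescaled from the split of reads. No test was run. Values are log2 ratios or deposited TPM. Scripts were tested on simulated data. Named are the 10 genes, MBD2, listed genes past 1 or -1, the highest gene by TPM of each role, neighbors and markers with at least 10 counts; LTC4S, ALOX5AP, LTA4H, PTGES2, PTGES3, PTGER1, PTGER3, NR4A1, NR4A2, FOS, PDE4B, PPARGC1A and markers with fewer reads fall outside this rule and were picked knowing their values. The genes and lists were chosen with earlier results of these data known.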

Additional observations from a re-analysis of the deposited data

How the results depend on the processing

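The 3 genes above 1 (PTGS2, PTGES and ALOX5) kept their direction under the 7 other scalings, priors and TPM settings. Among these settings, the largest median of the shifts of single genes was -0.028 on the log2 scale. Keeping genes with at least 1 count added PLA2G2A as a 4th above 1, and at least 100 counts left PTGS2 and PTGES. With log2 of TPM plus 1, PTGS1 moved from -1.91 to -0.55, leaving 1 of the 10 genes below -1, and the other eicosanoid genes past 1 and -1 numbered 3 and 0. Keeping genes with at least 1 count gave 12 and 5 of those, and at least 100 counts gave 3 and 0 with 0 of the 10 genes below -1, because PTGS1 and PLA2G10 have fewer reads. The cAMP list stayed at 0 in both directions throughout. Shares by counts in place of TPM, which weight longer genes more, were 5.34% in shMBD2 and 2.39% in shNC for PTGES, 8.46% and 7.47% for PTGES2, and 86.2% and 90.1% for PTGES3. In shNC, PLA2G4A took 99.4% and PLA2G10 0.597% of the phospholipase counts. The other 119 values stayed within their counting intervals or within 1.5 times their count. No paired analysis was possible because each group has 1 library. Genes with under 50 counts, among them both receptors, ALOX5, PTGS1 and PLA2G10, have wide intervals.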

Other observations

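The genes around the 10 pathway genes were read for a change shared along the chromosome or for reads of an overlapping gene. Beside PTGS2, 195 bases away on the opposite strand, lies the long noncoding RNA that the tables name RP5-973M2.2 (PACERR), with 21 counts in shMBD2 and 24 in shNC (log2FC -0.20, interval -1.12 to 0.71). On the other side, C1orf27 (ODR4), 250 kb away, had 774 and 716 counts (log2FC 0.10). The neighbors of PTGES were PRRX2, with 18 and 8 counts (log2FC 1.11, interval -0.11 to 2.57), and TOR1B, with 516 and 506 (log2FC 0.019). BFAR, 3.31 kb from PLA2G10, had 1383 and 1359 counts (log2FC 0.016). ABCC6P2, on the other side of PLA2G10, had 4 and 6 (log2FC -0.54, interval -2.86 to 1.48).

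MARCHF8, whose symbol had been turned into a date in the tables, lies 8.47 kb from ALOX5 and had 608 and 702 counts (log2FC -0.22), and ZNF22 on its other side had 98 and 68 (log2FC 0.52, interval 0.057 to 0.99). Beside PTGS1, the gene ENSG00000269979, 45.2 kb away on the same strand, had 32 and 52 counts (log2FC -0.70, interval -1.39 to -0.047), and RP11-542K23.7, 7.7 kb away on the other side, had 18 in each (log2FC -0.0086). The genes overlapping PTGS1 and PTGES had 0 counts in both libraries. BRINP3, the nearest counted gene beyond PLA2G4A, had 0 and 11 counts and lies 3109 kb away. CAMK2N1 beside PLA2G2A had 477 and 666 counts (log2FC -0.49), and OTUD3 on the other side had 296 and 317 (log2FC -0.11). TXNDC16 beside PTGER2 had 91 and 143 (log2FC -0.66), and NID2 on the other side had 153 and 152 (log2FC 0.0006). The neighbors of PTGER4 were DAB2, with 320 and 335 counts (log2FC -0.075), and TTC33, with 326 and 359 (log2FC -0.15). Beside HPGD, CEP44 had 249 and 332 counts (log2FC -0.42) and RP11-440I14.2, 547 bases away, had 13 and 19.

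MGLL, the monoacylglycerol lipase that hydrolyzes 2-arachidonoylglycerol, had 1158 and 1775 counts (log2FC -0.62, interval -0.73 to -0.52), whereas ABHD6 and ABHD12, which hydrolyze the same lipid, had 175 and 165 counts (log2FC 0.076, interval -0.24 to 0.39) and 1225 and 1166 (log2FC 0.062, interval -0.055 to 0.18). ABCC4, which exports PGE2, had 2083 and 2750 (log2FC -0.41, interval -0.49 to -0.33). SLCO2A1, the prostaglandin uptake carrier, had 0 counts in both libraries. These 5 genes were chosen after their values were seen.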
